A study of Arabidopsis thaliana with 6 samples.

Results

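The 10 loci described are JAZ1 to JAZ10 of Arabidopsis thaliana, which belong to the JASMONATE ZIM-DOMAIN repressors of jasmonate signalling. They were taken by locus identifier from a table of 33602 loci, and the rule itself holds no threshold on a measured value. JAZ11, JAZ12 and AT3G22275, also JAZ genes by name or annotation, are not among the 10 and are described with other TIFY proteins below. RNA had been sequenced from whole seedlings 14 days after germination: 3 libraries of cfm6-1, whose genotype is labelled CFM6-/-, and 3 of wild type (WT), both in the Col-0 background. CFM6 is a CRM domain protein, one of a plant family of RNA-binding factors for organelle introns, and the title of the series links it to an intron of the mitochondrial gene nad5. Both genotypes grew at 22 °C on MS medium with 1% sucrose, under 16 h of light and 8 h of dark, and no hormone treatment or wounding is named for either. The labels name 1 mutant line.

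JAZ proteins bind MYC2 and related transcription factors and hold their targets silent, with the adaptor NINJA and co-repressors of the TOPLESS family. When jasmonoyl-isoleucine, the active hormone, accumulates after wounding or attack, the F-box protein COI1 binds the C-terminal Jas motif of JAZ proteins and marks them for degradation. Many JAZ genes are themselves MYC2 targets, so their transcripts are commonly used as a readout of the pathway, and the new repressor they encode restrains it again.

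Levels are given in RPKM, reads per kilobase of gene model per 1000000 reads, so that members can be compared with each other per length. Library depth, estimated from the value steps that single reads make in short genes, was 47.3 to 52.8 M reads in cfm6-1 and 49.7 to 50.6 M in WT (M, 1000000). The locus taken as CFM6, AT4G13070, stood at 1.32, 1.23 and 1.32 RPKM in cfm6-1 replicates 1 to 3, against 3.85, 3.69 and 4.10 RPKM in WT replicates 1 to 3, which is 33.2% of the WT mean (limma log2 difference -1.09, SE 0.06, adjusted p = 1.20e-05). A minimum of 1 RPKM in no fewer than 3 libraries left 20047 loci for the test, and all 10 JAZ loci passed it. A locus was called at a limma adjusted p under 0.05 on log2(RPKM + 1), a scale that understates the difference of low genes. No member had multiply mapped reads, and between 32 and 16835 reads lay behind each member's value in a library. WT replicate 1 stood apart from the other 2 WT libraries among these members: it was the lowest WT library for 9 of 10 members, a position it held at 38.4% of all tested loci. Among the cfm6-1 libraries, replicate 2 was the lowest for 7 members and replicate 1 the highest for 6. The matching shares of all tested loci were not computed for the cfm6-1 libraries.

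The genes are spread over 4 chromosomes, 7 of them on chromosome 1. Protein identity, computed from the annotated coding sequences over the shorter protein, was highest between JAZ1 and JAZ2 at 65.1%, between JAZ7 and JAZ8 at 61.8%, between JAZ3 and JAZ4 at 57.7% and between JAZ5 and JAZ6 at 57.2%. The lowest identity, 19.7%, was between JAZ6 and JAZ9. JAZ7 and JAZ8 encode the shortest proteins, of 148 and 131 residues, and JAZ3 the longest, of 352.

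Promoter sequence was examined because MYC2 is known to bind the G-box, and the members differ in it. The letters CACGTG, which read the same on both strands and were the only motif searched, occurred within 250 bases upstream of the annotated gene start in 4 of 10 members, against 6.49% of 27444 protein-coding genes of the nuclear genome. Within 1000 bases they occurred in 8 of 10 members, JAZ4 and JAZ10 being without, against 14.8% of genes. The 150 bases directly upstream of the 4 members with a near match are given 5′ to 3′ on the gene's strand, with the matches in capitals. They are, in TAIR10.1, chr1:10596202-10596351 on the plus strand for JAZ8, chr2:14572880-14573029 on the plus strand for JAZ7, chr1:28150447-28150596 on the minus strand for JAZ2, and chr3:6119557-6119706 on the plus strand for JAZ3.
JAZ8: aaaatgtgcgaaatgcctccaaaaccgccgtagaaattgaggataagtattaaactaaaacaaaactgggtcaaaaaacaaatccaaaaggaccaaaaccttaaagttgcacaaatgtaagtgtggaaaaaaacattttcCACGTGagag
JAZ7: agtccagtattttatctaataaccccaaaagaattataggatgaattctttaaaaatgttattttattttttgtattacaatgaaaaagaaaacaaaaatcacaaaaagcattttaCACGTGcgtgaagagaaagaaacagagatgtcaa
JAZ2: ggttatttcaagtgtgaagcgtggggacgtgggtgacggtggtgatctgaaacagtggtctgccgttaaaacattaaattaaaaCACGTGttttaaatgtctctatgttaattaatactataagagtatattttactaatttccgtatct
JAZ3: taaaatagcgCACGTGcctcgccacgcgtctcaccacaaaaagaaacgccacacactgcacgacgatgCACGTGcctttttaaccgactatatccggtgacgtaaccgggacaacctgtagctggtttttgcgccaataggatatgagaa
The match lay 10 bases upstream of the gene start in JAZ8, 34 in JAZ7 and 66 in JAZ2, while JAZ3 held matches at 140 and 82 bases. JAZ8 and JAZ7 had the highest fold differences of the 10 members, JAZ2 was 2.27-fold higher and JAZ3 was the member that was not called. Whether a match bears on these differences was not tested. A match is a run of letters, not a shown binding site.

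JAZ transcripts were mostly more abundant in cfm6-1 seedlings, and the members differed widely in how much. Of the 10 members, 7 were higher, a call made for 38.6% of all tested loci. JAZ4 and JAZ9 were lower, a call made for 30.2% of tested loci, and JAZ3 was not called. Ranges of the 3 cfm6-1 and 3 WT libraries did not overlap for 9 of 10 members, against 74.3% of tested loci, which is a share close to that background. In size, 6 of 10 members were called higher with a ratio of mean RPKM of at least 2, a limit chosen after the values were seen, against 9.0% of tested loci. The median log2 difference was 1.37 over the members and 0.05 over all tested loci. In whole seedlings, fewer cells of a type and less RNA per cell cannot be told apart.

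**Figure D1:**
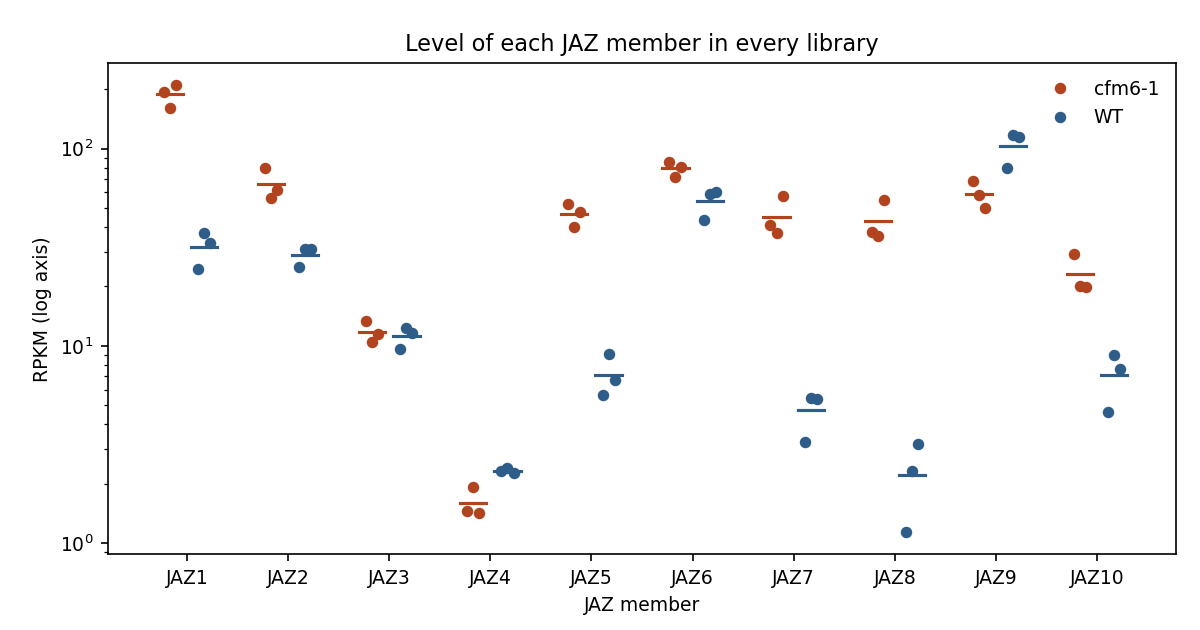
RPKM of each JAZ member on a log axis, with cfm6-1 to the left of WT; each point is 1 library and each bar the mean of 3. JAZ8 stood at 35.9 to 55.1 RPKM in cfm6-1 and at 1.14 to 3.19 in WT, while JAZ3 overlapped between genotypes and JAZ9 was lower in all 3 cfm6-1 libraries.

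JAZ7 and JAZ8 are short repressors whose Jas motif lacks the canonical degron, and JAZ8 is known to resist degradation when jasmonate is present. JAZ8 (AT1G30135, chr1:10596352-10597341) stood at 37.7, 35.9 and 55.1 RPKM in cfm6-1 replicates 1 to 3, against 1.14, 2.32 and 3.19 RPKM in WT replicates 1 to 3. The lowest cfm6-1 library lay far above the highest WT library. The means were 42.9 ± 10.6 and 2.22 ± 1.03 RPKM (SD, n = 3 each), a 19.4-fold higher level and the highest ratio among the 10 members (limma log2 difference 3.80, SE 0.26, adjusted p = 2.16e-05). Its WT values rested on 32, 66 and 91 reads.

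JAZ7 (AT2G34600, chr2:14573030-14573952) showed 40.8, 37.3 and 57.3 RPKM in cfm6-1 replicates 1 to 3, against 3.27, 5.47 and 5.40 RPKM in WT. The genotypes again did not overlap, and cfm6-1 replicate 3 was the highest library for both genes. JAZ7 averaged 45.1 ± 10.7 RPKM in cfm6-1 and 4.71 ± 1.25 RPKM in WT (SD, n = 3 each), 9.58-fold higher (limma log2 difference 3.02, SE 0.21, adjusted p = 2.15e-05).

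JAZ5 and JAZ6 carry an EAR motif, through which a JAZ protein can bind TOPLESS without NINJA. JAZ5 (AT1G17380, chr1:5955155-5957511) stood at 52.4, 40.1 and 47.9 RPKM in the cfm6-1 libraries, against 5.67, 9.11 and 6.68 RPKM in the WT libraries. All cfm6-1 libraries lay above all WT libraries, at 46.8 ± 6.25 against 7.15 ± 1.77 RPKM (SD, n = 3 each), 6.54-fold higher (limma log2 difference 2.56, SE 0.16, adjusted p = 1.57e-05). JAZ6 (AT1G72450, chr1:27273968-27276562), its nearest relative by protein, had a smaller ratio. Its levels were 86.0, 72.0 and 80.4 RPKM in cfm6-1 and 43.5, 59.1 and 60.5 RPKM in WT, close but without overlap. The means of 79.5 ± 7.01 in cfm6-1 and 54.4 ± 9.41 RPKM in WT (SD, n = 3 each) gave a 1.46-fold higher level (limma log2 difference 0.55, SE 0.13, adjusted p = 0.00712).

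JAZ1, the member in which binding to COI1 and degradation were among the first described, was the most abundant JAZ transcript in cfm6-1. JAZ1 (AT1G19180, chr1:6621777-6623668) reached 194, 161 and 209 RPKM in cfm6-1 replicates 1 to 3, against 24.6, 37.4 and 33.3 RPKM in WT. The groups did not overlap, with means of 188 ± 24.4 in cfm6-1 and 31.8 ± 6.55 RPKM in WT (SD, n = 3 each), 5.92-fold higher (limma log2 difference 2.54, SE 0.16, adjusted p = 1.56e-05). JAZ2 (AT1G74950, chr1:28148574-28150446), a close relative known from the control of stomata during bacterial infection, stood at 79.6, 56.1 and 61.5 RPKM in cfm6-1 and at 25.0, 31.0 and 31.0 RPKM in WT. It was higher in every cfm6-1 library, with 65.7 ± 12.3 RPKM in cfm6-1 against 29.0 ± 3.46 RPKM in WT (SD, n = 3 each), a 2.27-fold difference (limma log2 difference 1.15, SE 0.14, adjusted p = 0.000275).

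JAZ10, which limits jasmonate responses and is known for splice forms that escape degradation, was measured here per locus and not per splice form. JAZ10 (AT5G13220, chr5:4218786-4221077) stood at 29.1, 20.1 and 19.9 RPKM in cfm6-1 and at 4.65, 8.98 and 7.68 RPKM in WT. The genotypes were separate, and cfm6-1 replicate 1 was above the other 2 cfm6-1 libraries. JAZ10 averaged 23.0 ± 5.26 RPKM in cfm6-1 and 7.10 ± 2.22 RPKM in WT (SD, n = 3 each), 3.24-fold higher (limma log2 difference 1.59, SE 0.23, adjusted p = 0.000651). The JAZ10 locus shares 71 annotated bases with AT5G02045, a long noncoding RNA on the opposite strand, and whether counting used strand is not given. The other 9 members overlap no annotated gene.

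JAZ9, which binds MYC2 and is also known to bind the DELLA repressor RGA of gibberellin signalling, was the most abundant member in WT and lower in cfm6-1. JAZ9 (AT1G70700, chr1:26654529-26657350) stood at 68.9, 57.8 and 50.1 RPKM in cfm6-1 replicates 1 to 3, against 79.5, 117 and 115 RPKM in WT. The highest cfm6-1 library was close to the lowest WT library, with no overlap. The means were 58.9 ± 9.45 in cfm6-1 and 104 ± 20.9 RPKM in WT (SD, n = 3 each), so JAZ9 fell to 56.9% of the WT level (limma log2 difference -0.79, SE 0.17, adjusted p = 0.00442).

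JAZ4, which is known to bind WRKY57 in the control of leaf senescence, was the least abundant member in cfm6-1. JAZ4 (AT1G48500, chr1:17931390-17934662) stood at 1.45, 1.92 and 1.43 RPKM in cfm6-1, against 2.32, 2.41 and 2.28 RPKM in WT. All cfm6-1 values were below all WT values, at 1.60 ± 0.277 RPKM in cfm6-1 and 2.34 ± 0.0666 RPKM in WT (SD, n = 3 each), 68.5% of the WT level (limma log2 difference -0.36, SE 0.09, adjusted p = 0.0077). JAZ3 (AT3G17860, chr3:6119707-6123044), the gene in which the dominant jasmonate-insensitive mutation jai3-1 lies, is the closest relative of JAZ4. JAZ3 stood at 13.4, 10.5 and 11.5 RPKM in cfm6-1 and at 9.69, 12.3 and 11.6 RPKM in WT, so the ranges overlapped. Its log2 difference was 0.07 with a 95% interval of -0.18 to 0.33 (limma adjusted p = 0.575), and it had no stable sign: it was -0.02 without cfm6-1 replicate 1 and also -0.02 without WT replicate 1.

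**Figure D2:**
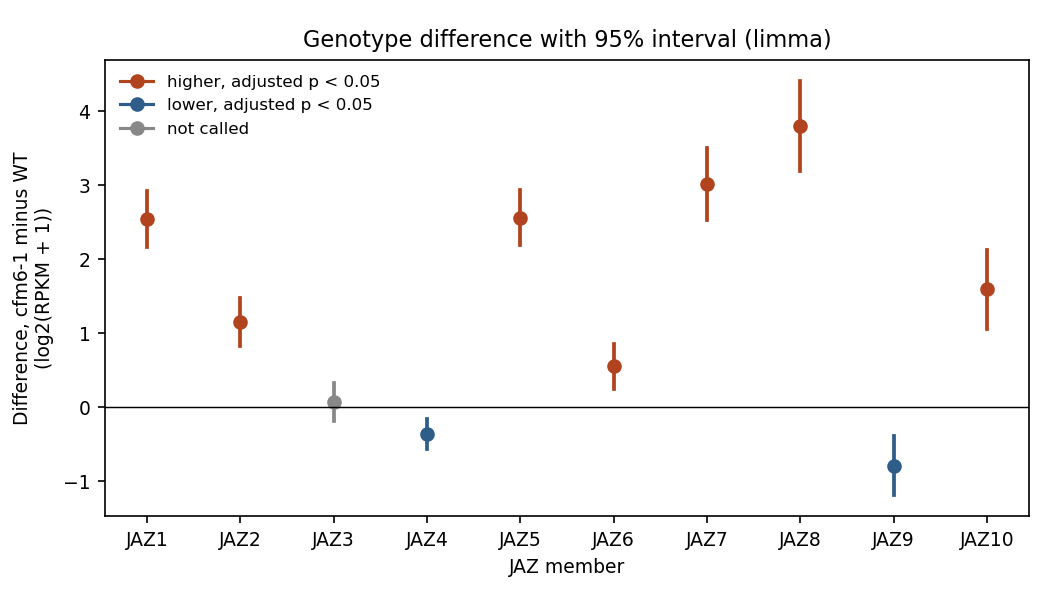
Difference of each member between cfm6-1 and WT on the log2(RPKM + 1) scale, as the limma estimate (point) with its 95% interval (line), coloured by call. JAZ8 at 3.80 and JAZ9 at -0.79 mark the ends of the range, and only the interval of JAZ3 includes 0.

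Without WT replicate 1, the 7 higher and 2 lower calls were made as before. Over the fits that left out each of the 6 libraries in turn, the limma log2 difference was 3.53 to 4.02 for JAZ8, 2.37 to 2.67 for JAZ1 and -0.97 to -0.68 for JAZ9.

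The order of the members by level differed between the genotypes. In cfm6-1, JAZ1 at 188 RPKM lay above all others, then JAZ6, JAZ2, JAZ9, JAZ5, JAZ7 and JAZ8 followed from 79.5 to 42.9 RPKM, each overlapping its neighbour, and JAZ10, JAZ3 and JAZ4 came last, each separate from the next. In WT, JAZ9 at 104 RPKM came first and JAZ6 at 54.4 second, both separate from the next. JAZ1 and JAZ2 overlapped, JAZ3 was separate, JAZ5, JAZ10 and JAZ7 overlapped in turn at 7.15 to 4.71 RPKM, and JAZ4 and JAZ8 overlapped at the low end. JAZ8 thus shared the lowest place with JAZ4 in WT, whereas the JAZ8 values of cfm6-1 overlapped those of JAZ7.

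Added over the 10 members, RPKM came to 603, 493 and 594 in cfm6-1 replicates 1 to 3 and to 199, 285 and 276 in WT. The cfm6-1 sums all lay above the WT sums, at 563 ± 61.2 against 253 ± 47.0 (SD, n = 3 each), a 2.22-fold difference (p = 0.1 by a two-sided exact permutation test, the lowest possible with 3 libraries a genotype). The make-up of the sum differed as well. JAZ9 held 10.5 ± 1.82% of the sum in cfm6-1 and 40.8 ± 0.833% in WT, whereas JAZ1 held 33.4 ± 1.61% in cfm6-1 and 12.5 ± 0.565% in WT. JAZ5, JAZ7 and JAZ8 were minor members in WT. JAZ5 held 8.29% of the sum in cfm6-1 and 2.82% in WT. JAZ7 held 7.99% in cfm6-1 and 1.84% in WT, and JAZ8 held 7.60% in cfm6-1 and 0.847% in WT. The share of JAZ6 was 14.1% in cfm6-1 and 21.5% in WT, although its level was higher in cfm6-1. The share of JAZ2 was 11.6 ± 1.44% in cfm6-1 and 11.5 ± 0.875% in WT, with overlapping values (exact permutation p = 0.9). The other 9 shares did not overlap between genotypes (exact permutation p = 0.1 each, the smallest possible). As a background, RPKM ranges of single loci did not overlap at 74.3% of tested loci. Shares of the same sum depend on each other and on the sum, so these are not 9 separate results. The JAZ3 share was lower in every cfm6-1 library, although the RPKM ranges of JAZ3 overlapped between genotypes.

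**Figure D3:**
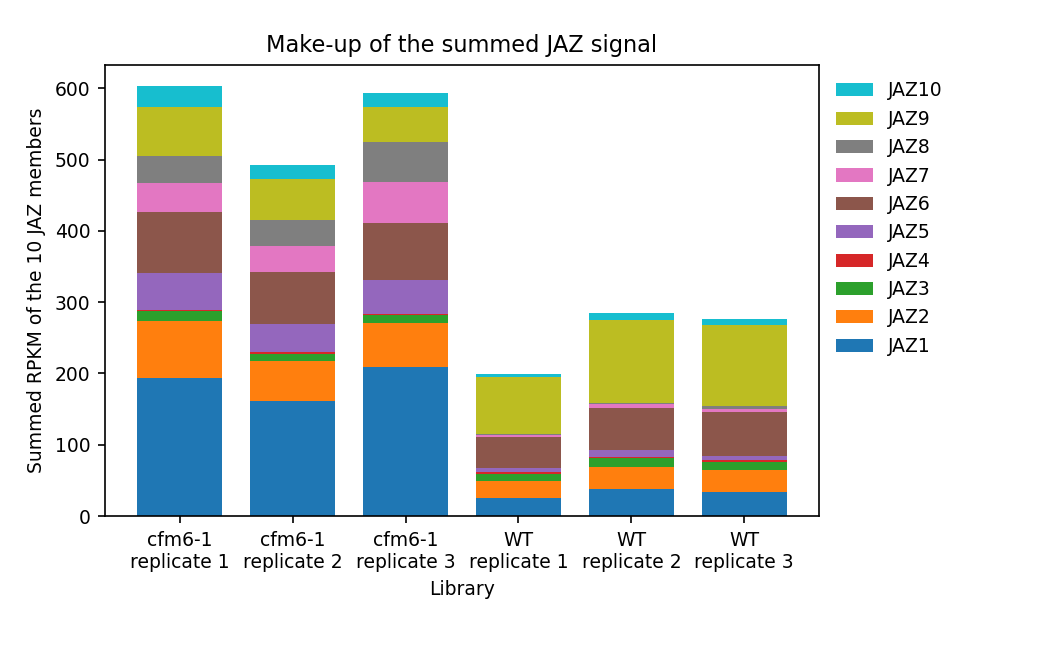
Summed RPKM of the 10 members in each library, the 3 cfm6-1 libraries left of the 3 WT libraries, with 1 colour per member. The bars reach 493 to 603 in cfm6-1 and 199 to 285 in WT, and JAZ9 is the largest block in WT while JAZ1 is the largest in cfm6-1.

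Members of 4 pairs were set against each other as ratios of RPKM within a library. JAZ3 and JAZ9 are less alike than the other pairs, at 38.4% protein identity, and JAZ3 is closer to JAZ4, at 57.7%. In all 4 pairs the ratios of the 3 cfm6-1 libraries lay apart from those of the 3 WT libraries. For single loci, ranges of RPKM did not overlap at 74.3% of tested loci. The JAZ1 level was 2.44, 2.88 and 3.40 times the JAZ2 level in cfm6-1, against 0.983, 1.21 and 1.08 times in WT. JAZ5 stood at 0.610, 0.556 and 0.596 of JAZ6 in cfm6-1 and at 0.130, 0.154 and 0.110 in WT, the widest shift of the 4 pairs compared, with a difference of 2.01 in the log2 ratio of RPKM + 1. Both pairs were separate between genotypes, with the first-named gene at a higher ratio in cfm6-1. JAZ7 exceeded JAZ8 by a ratio of 1.08, 1.04 and 1.04 in cfm6-1 and of 2.87, 2.36 and 1.69 in WT, so JAZ7 and JAZ8 stood near 1 to 1 in the mutant. JAZ3 was at 0.195, 0.181 and 0.230 of JAZ9 in cfm6-1 and at 0.122, 0.105 and 0.101 in WT, where JAZ9 was called lower in cfm6-1 and JAZ3 was not called. Each of the 4 pairs gave a two-sided exact permutation p of 0.1 over 3 against 3 libraries, the smallest possible, also after Benjamini-Hochberg adjustment over the 4 pairs.

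The rest of the jasmonate pathway was taken in 7 lists by role, with 61 loci of which 57 were tested, and 30 were higher and 11 lower. Each list's counts are read against the 38.6% of all tested loci called higher and the 30.2% called lower. TIFY proteins are the wider family in which JAZ proteins are placed. Among 9 loci listed as other TIFY proteins, 3 were higher and 1 lower, with a median log2 difference of 0.11, so the share called higher was near that of all tested loci. AT3G22275, annotated as a jasmonate ZIM-domain protein, averaged 2.96 ± 1.68 RPKM in cfm6-1 and 0.160 ± 0.0964 RPKM in WT (SD, n = 3 each), with cfm6-1 replicate 1 at 4.89 (limma log2 difference 1.70, adjusted p = 0.000876). Its WT values rested on 3, 9 and 4 reads. AT3G22275 passed the filter through the cfm6-1 libraries alone, where it was high, so its higher call carries little weight. Whether its protein holds a TIFY motif was not examined. ZML1, a GATA-type relative, was higher by 0.35 and PPD2, a regulator of leaf growth, by 0.27 on the log2 scale. JAZ12 was lower by a narrow margin (limma log2 difference -0.20, adjusted p = 0.0472), and that call was lost under 7 of 15 alternatives, among them leaving out cfm6-1 replicate 2, cfm6-1 replicate 3, WT replicate 2 or WT replicate 3. JAZ12 averaged 58.4 RPKM in cfm6-1 and 67.2 RPKM in WT, where JAZ6 averaged 54.4 RPKM. The order, sum and shares given above leave JAZ12 out and hold for JAZ1 to JAZ10 only. JAZ11, named after its values were seen, stood at 9.31 ± 0.118 RPKM in cfm6-1 and 9.55 ± 0.111 RPKM in WT (limma adjusted p = 0.533).

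Of 6 co-repressors, 2 were higher, again near the share of all tested loci, and none was lower, with a median log2 difference of 0.08. NINJA, the adaptor between JAZ proteins and TOPLESS, averaged 43.5 ± 2.30 RPKM in cfm6-1 and 34.0 ± 1.78 RPKM in WT (limma log2 difference 0.35, adjusted p = 0.00143). TPR3, a TOPLESS relative, was higher by 0.30, and TPL itself stood at 52.9 RPKM in cfm6-1 and 49.4 RPKM in WT and was not called (limma adjusted p = 0.0635). In the receptor complex, 1 of 5 genes was lower and none higher. COI1, the jasmonate receptor, stood at 15.8 ± 0.231 RPKM in cfm6-1 and 16.1 ± 0.423 RPKM in WT, a log2 difference of -0.02 with a 95% interval of -0.13 to 0.08 (limma adjusted p = 0.642). ASK2, a SKP1-like subunit of the same ligase, was the lower one, at 77.7 RPKM in cfm6-1 and 93.9 RPKM in WT (limma log2 difference -0.27, adjusted p = 0.00199).

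Among the transcription factors that JAZ proteins bind, 3 of 6 tested were higher and 3 lower. MYC2, which activates early wound-response genes, stood at 128, 119 and 170 RPKM in cfm6-1, against 29.6, 36.8 and 35.9 RPKM in WT. The ranges were far apart, and the means differed 4.08-fold (limma log2 difference 1.99, adjusted p = 2.60e-05). JAM1 and JAM2, bHLH factors that repress the same targets, were higher by 1.43 and 0.39 on the log2 scale. MYC4 and MYC3, which share functions with MYC2, were lower by contrast, at -0.34 and -0.31. MYC3 was named after its values were seen, as was JAM3, the other lower one at -0.15, whose call was lost without cfm6-1 replicate 1, cfm6-1 replicate 3, WT replicate 1 or WT replicate 2 (limma adjusted p up to 0.118 over the alternatives).

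Hormone synthesis genes were higher for 12 of 14 tested and lower for 1, with a median log2 difference of 1.10. LOX3 and LOX4, lipoxygenases of the first step, averaged 81.2 ± 17.4 and 73.9 ± 17.2 RPKM in cfm6-1, against 5.60 ± 1.03 and 4.51 ± 0.920 RPKM in WT (limma log2 difference 3.63 and 3.75). Both were called at a limma adjusted p of 5.98e-06 for LOX3 and 6.61e-06 for LOX4. AOC3, an allene oxide cyclase, was 6.17-fold higher and AOS, the allene oxide synthase, 2.26-fold higher. JAR1, the enzyme that joins jasmonate to isoleucine, was the gene that was lower, at 21.6 RPKM in cfm6-1 and 25.7 RPKM in WT (limma log2 difference -0.24, adjusted p = 0.00293), and was named after its values were seen. LOX2, also named after its values were seen, was called higher at a limma adjusted p of 0.0181, but not without cfm6-1 replicate 1, cfm6-1 replicate 2, WT replicate 1 or WT replicate 3.

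Hormone inactivation genes were higher for 8 of 9 tested and lower for 1, with a median of 1.14. CYP94B3, a cytochrome P450 that oxidises jasmonoyl-isoleucine, stood at 56.8, 42.3 and 74.1 RPKM in cfm6-1, against 1.38, 1.03 and 1.56 RPKM in WT. Its mean level was 43.6-fold higher (limma log2 difference 4.63, adjusted p = 4.11e-06). CYP94C1, which carries the oxidation further, was 3.66-fold higher, and IAR3, an amidohydrolase that cleaves the conjugate, 1.75-fold higher. AT5G05600, listed with them, was 2.20-fold higher. ST2A, a sulfotransferase of a jasmonate derivative, was the lower one, at 49.0% of the WT level, and was named after its values were seen. JRG21 was called higher (limma adjusted p = 0.0216), a call lost without cfm6-1 replicate 1 or without cfm6-1 replicate 2, and the ILL6 call was lost without cfm6-1 replicate 1; JRG21 and ILL6 were named after their values were seen.

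Outputs of the pathway were divided. Of 8 tested, 2 were higher and 4 lower, with a median log2 difference of -0.83. CORI3, a coronatine-induced gene, averaged 144 ± 38.4 RPKM in cfm6-1 and 40.3 ± 4.63 RPKM in WT (limma log2 difference 1.78, adjusted p = 0.000185), and ERF1, an ethylene and jasmonate factor, was higher by 1.22. PDF1.2, an antifungal defensin of the branch shared with ethylene, was at 61.9, 90.5 and 40.7 RPKM in cfm6-1, against 190, 432 and 385 RPKM in WT. It was lower in all 3 cfm6-1 libraries (limma log2 difference -2.35, adjusted p = 0.00101). TAT3, a tyrosine aminotransferase induced by jasmonate, was lower as well, at 52.0 ± 9.01 RPKM in cfm6-1 and 144 ± 35.2 RPKM in WT (limma log2 difference -1.44, adjusted p = 0.000398). VSP2 and ORA59 completed the lower calls, at -1.42 and -0.80, and were named after their values were seen. The VSP2 call was lost without WT replicate 2, and with no filter on low values the VSP2 and ORA59 calls were both lost, leaving 2 lower. VSP1, likewise named after its values were seen, was not called.

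**Figure D4:**
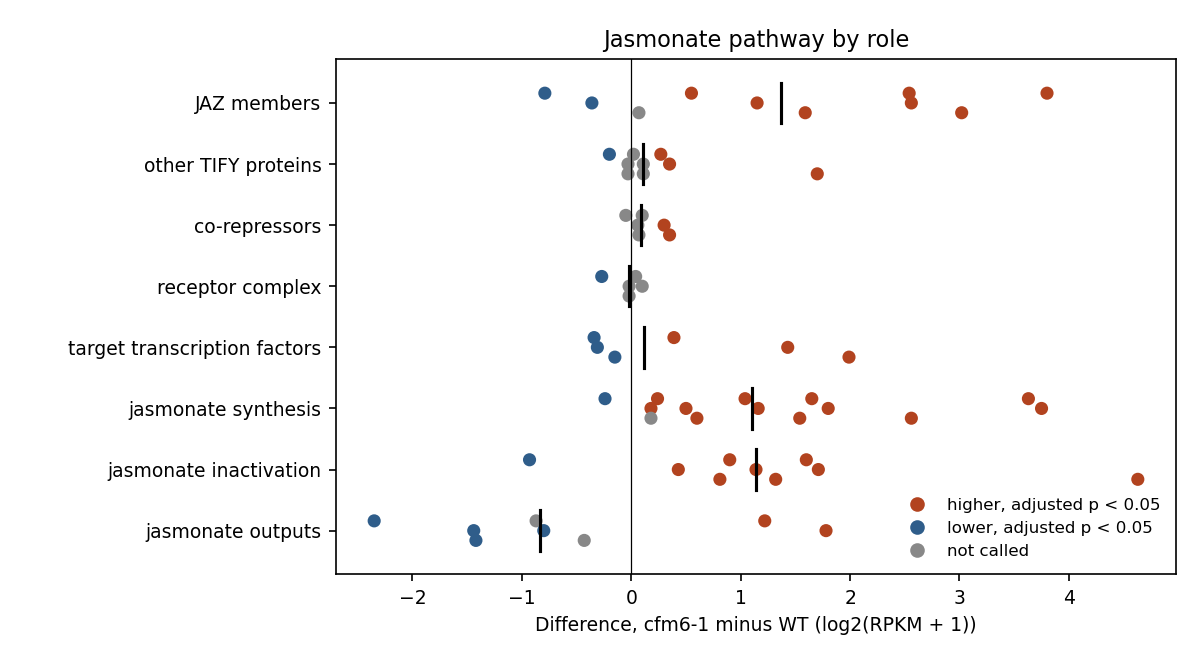
Limma difference between cfm6-1 and WT on the log2(RPKM + 1) scale for JAZ1 to JAZ10 and each tested gene of the 7 other lists, 1 point per gene, coloured by call, with the list's median as a black bar. The medians are 1.37 for JAZ members, 1.10 for synthesis, 1.14 for inactivation and -0.83 for outputs, while co-repressors and the receptor complex lie near 0.

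Genes that plants raise quickly after touch or wounding were mostly higher in cfm6-1. Of 14 such genes, 13 were higher, against 38.6% of all tested loci, and none was lower, with a median log2 difference of 2.43, and their summed level was 2147 to 3360 RPKM in cfm6-1 and 787 to 1102 RPKM in WT. The touch and wound sum was highest in cfm6-1 replicate 3. The JAZ sums of cfm6-1 replicates 1 and 3 were close, at 603 and 594 RPKM. JAZ1, JAZ7 and JAZ8 were highest in cfm6-1 replicate 3, while replicate 1 was the highest cfm6-1 library for 6 members. RRTF1, a redox-responsive transcription factor, was higher by 6.16, CML38, a calmodulin-like protein, by 3.49, SZF1, a zinc finger protein, by 3.14 and TCH2, a calmodulin-like touch gene, by 2.64. RRTF1 stood at 0.23, 0.17 and 0.30 RPKM in WT, so it passed the filter through the cfm6-1 libraries alone. Leaf markers were lower for 5 of 7, against 30.2% of all tested loci, and higher for 1. Their summed levels were 14030 to 14980 RPKM in cfm6-1 and 21060 to 24390 RPKM in WT. CAB1, named after its values were seen, was the largest part of that sum. Its lower call was lost with quantile normalization, with no filter and without cfm6-1 replicate 2, and the RBCS1A call was lost with no filter. The lower calls of CAB2, RCA and EPFL9 were kept under every alternative. The higher one, RBCS1B, named after its values were seen, had up to 0.308 of its reads multiply mapped and is uncertain. Root markers were higher for 2 and lower for 3 of 8 tested, not far from the shares of all tested loci. Their summed levels were 2281 to 2715 RPKM in cfm6-1 and 1681 to 1887 RPKM in WT. Most of that sum was PYK10, an abundant root glucosidase, so the sum follows this 1 gene. PYK10 was called higher (limma log2 difference 0.48), a call lost with no filter on low values, and WOX5 was the other higher one. WOX5 stood at 2.23, 2.16 and 1.24 RPKM in cfm6-1 and at 0.21, 0.34 and 0.42 RPKM in WT. It passed the filter through the cfm6-1 libraries alone, where it was high, so its higher call carries little weight. CASP1, COBL9 and SHR were lower, at 45.7%, 50.4% and 80.6% of the WT level, and SHR was named after its values were seen. Flower markers summed to 6.51 to 7.82 RPKM in cfm6-1 and 5.95 to 7.91 RPKM in WT, and seed markers to 0.40 to 1.48 RPKM in cfm6-1 and 0.06 to 0.09 RPKM in WT. None of these markers was at 0 in all libraries, and the leaf and root sums were well above those of flower and seed in every library of both genotypes. The part of the touch and wound genes, or of the organ markers, in the JAZ differences was not tested.

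The 5 loci whose profile over the 6 libraries lay nearest to the mean JAZ profile were PMZ, JAM1, AT2G48090, GATL2 and LBD11. Likeness was the Euclidean distance between log2(RPKM + 1) values centred on each gene's mean over the 6 libraries, and it was 0.160 for PMZ, 0.171 for JAM1, 0.209 for AT2G48090, 0.233 for GATL2 and 0.243 for LBD11. Their log2 differences were 1.38 to 1.57. The members themselves lay farther off, from 0.422 for JAZ2 and 0.456 for JAZ10 to 2.72 for JAZ9 and 2.98 for JAZ8, so the mean profile describes few members well.

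In the authors' deposited table, which holds their own comparison, a log2 fold change is given for 9 of 10 members, and JAZ3 has none. Those values in the authors' deposited table ran from -0.86 for JAZ9 and -0.59 for JAZ4 to 3.21 for JAZ7 and 4.22 for JAZ8. Their adjusted p in the authors' deposited table was under 0.05 for 2 members, JAZ1 at 0.0342 and JAZ5 at 0.0332. For the other 7 with a fold change, the adjusted p in the authors' deposited table was between 0.071 and 0.11. Those 7 members were called here by limma but did not pass 0.05 in the authors' own comparison. The share of all loci under 0.05 in the authors' deposited table was not computed, so the count of 2 has no background. The direction of that table is not labelled, but 12498 of 12499 tested loci with a value in the authors' deposited table had the sign of cfm6-1 over WT mean RPKM.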

How the data were processed

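Per the labels' protocols, total RNA from 6 whole-seedling samples was sequenced as 100 bp single-end reads. The submitters' processing notes name TAIR10, with aligner, counter and strand setting not given in the sources used here. The authors deposited RPKM per locus, rounded to 2 decimals, and a fraction of multiply mapped reads. A second deposited table holds gene lengths and the authors' p-values, adjusted p-values and log2 fold changes. In that table, 6 per-sample columns under codes not tied to samples were not used.

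The 20047 loci that reached 1 RPKM in 3 or more libraries were tested with limma 3.58.1 (R 4.3.3), with a mean-variance trend, on log2(RPKM + 1), genotype as the only factor, and Benjamini-Hochberg adjustment. Ratios are of mean RPKM. The fit was run on simulated data with few changed loci and less replicate spread than most JAZ members showed. That run therefore does not give the error rate of the calls in these data. Depth was taken from steps of 1 read in genes under 0.3 kb; 100% of the values used lay within 0.1 of a whole read. The 95% intervals are limma's and include the spread between replicates. Replicates of a genotype differed beyond sampling noise (chi-square per degree of freedom 10.47 to 25.07) and each counted as 1; the labels call them biological replicates. Sums and ratios were compared by exact permutation. Sequences and coordinates are from RefSeq TAIR10.1, matched by locus tag; symbols of 104 of 110 listed loci were found there.

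Named genes were all members, up to 4 loci of each list in order of adjusted p, the 5 nearest profiles and CFM6; others are marked. The members and lists were chosen with earlier results of these data known.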

Additional observations from a re-analysis of the deposited data

How the results depend on the processing

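Under all 15 alternatives run on the calls (pseudocount 0.1, no filter, a filter at 10 RPKM, median-of-ratios scaling, quantile normalization, replicate block, no trend, limma-voom on rebuilt reads, loci with shared reads left out, and each of 6 libraries left out), 7 JAZ members were higher. The number lower was 2 in each, except 1 with the filter at 10 RPKM, where JAZ4 was not tested. That filter gave 4812 loci higher and 3696 lower over the whole table, from fewer loci tested. The split over all loci was 7736 higher and 6063 lower as reported, 6933 and 6873 with median-of-ratios scaling, and 6562 and 7248 with quantile normalization, which moved the median of all loci by -0.05 and -0.08. Leaving out 1 library gave 7068 to 7464 higher and 5491 to 5734 lower. JAZ3 turned to -0.01 with quantile normalization, -0.02 without WT replicate 1 and -0.02 without cfm6-1 replicate 1, within a range of -0.02 to 0.15 when 1 library was left out; the cause was not tested.

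Same-numbered libraries did not deviate together over all tested loci (correlations 0.0323, -0.138 and -0.0023). That gives no sign of pairing by number, but it cannot exclude a weak pairing, and the labels only number the replicates. With the replicate number as a block, 7423 loci were higher and 5832 lower, and the members gave 7 and 2. The log2 ratio of the summed JAZ RPKM ranged from 1.01 to 1.24. Leaving out a library makes the smallest exact permutation p 0.2. Depth was lowest for JAZ8 in WT replicate 1, with 32 reads. Of the pathway lists, the number of other TIFY proteins lower went to 0 under 7 alternatives and to 2 with quantile normalization, and that of outputs lower to 2 with no filter. Single genes also moved the counts of co-repressors higher (1 with the filter at 10 RPKM), of the receptor complex (1 higher with no filter, 2 lower with quantile normalization) and of outputs higher (1 with the filter at 10 RPKM).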

Other observations

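JAZ5 and JAZ6 lie near lipoxygenase genes in TAIR10.1, an observation made after their values were seen. JAZ5 and LOX3 are 19811 bases apart on chromosome 1, with 2 protein-coding genes between them. LOX3 was 14.5-fold and JAZ5 6.54-fold higher in cfm6-1 than in WT, whereas AT1G17410 between them stood at 8.26 RPKM in cfm6-1 and 8.24 RPKM in WT (limma log2 difference -0.01, adjusted p = 0.963) and AT1G17400 was below the filter. JAZ6 and LOX4 are 31950 bases apart, with 6 protein-coding genes between them. There, LOX4 was 16.4-fold and JAZ6 1.46-fold higher in cfm6-1. Of the 4 genes tested between them, 1 was higher and 1 lower, with log2 differences from -0.26 to 0.18. Whether position bears on these levels was not tested.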
